A study of Homo sapiens with 10 samples.

Results

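The G2/M and mitosis genes described here are 42 genes that proliferating cells switch on as they leave S phase and divide. They were taken as a list of symbols, with no threshold on a measured value, and all 42 were found among the 23234 genes present in all 5 deposited tables. The study sequenced RNA from human lung adenocarcinoma cell lines to learn how the ABL kinases ABL1 and ABL2 shape the transcriptome. GNF5 is an allosteric inhibitor of these kinases, and shRNAs are short hairpin RNAs that lower the transcript they match.

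Cells given GNF5 were compared with cells given DMSO, the solvent control, in 3 lines, PC9, PC9M and H358. Cells transduced with ABL1/ABL2 shRNAs were compared with cells transduced with a scrambled shRNA in PC9 and PC9M. PC9 is labelled as metastasising generally, PC9M as metastasising more to bone and brain, and H358 as not tested. GNF5 was given for 72 h, at a dose that the labels write as 10 mM in PC9 and H358 and as 20 mM in PC9M. Whether the unit is right could not be checked. The shRNAs were delivered with 8 µg/mL polybrene, and the labels give neither the time after transduction nor the number of hairpins or clones. Each of the 10 groups is 1 library, so a single pair has no replicate, no SD and no p-value of its own here.

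Entry into mitosis is driven by the kinase CDK1 bound to a B-type cyclin. Kinetochores then tie chromosomes to spindle microtubules, and a checkpoint holds the anaphase-promoting complex (APC/C, a ubiquitin ligase) inactive until every chromosome is attached. Many genes of this programme carry a pair of promoter elements, the CCAAT box, bound by the factor NF-Y, and the cell cycle genes homology region (CHR), bound by complexes built on MuvB. MuvB with DREAM partners represses these genes in resting cells, and MuvB with B-MYB and FOXM1 activates them in dividing cells.

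Of the 42 genes, 35 had a promoter window in the RefSeq table (build GRCh38.p14), which runs from 250 bases before to 50 bases after a gene's start. BIRC5, AURKA, FOXM1, CENPM, TTK, UBE2C and TPX2 had none. The 5 windows printed here belong to genes at least 2-fold apart in 1 or more of the 5 pairs of libraries. They are in lower case, 5′ to 3′, with capitals for CCAAT and TTTGAA or, where the word lies on the other strand, ATTGG and TTCAAA.
CCNB1, chr5:69166900-69167199, plus strand: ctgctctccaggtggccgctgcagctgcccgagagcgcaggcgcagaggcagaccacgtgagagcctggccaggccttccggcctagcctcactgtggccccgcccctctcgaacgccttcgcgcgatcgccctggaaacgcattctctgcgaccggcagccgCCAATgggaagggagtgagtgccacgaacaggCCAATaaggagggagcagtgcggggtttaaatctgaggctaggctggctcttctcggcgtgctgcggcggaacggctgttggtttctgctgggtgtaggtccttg
CDK1, chr10:60778081-60778380, plus strand: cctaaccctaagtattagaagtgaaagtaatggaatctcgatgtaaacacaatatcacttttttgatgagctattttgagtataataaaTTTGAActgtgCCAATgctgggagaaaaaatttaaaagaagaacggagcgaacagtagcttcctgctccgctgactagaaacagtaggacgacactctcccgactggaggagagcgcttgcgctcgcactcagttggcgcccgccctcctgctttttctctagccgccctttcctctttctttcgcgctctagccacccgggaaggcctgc
CDC20, chr1:43358731-43359030, plus strand: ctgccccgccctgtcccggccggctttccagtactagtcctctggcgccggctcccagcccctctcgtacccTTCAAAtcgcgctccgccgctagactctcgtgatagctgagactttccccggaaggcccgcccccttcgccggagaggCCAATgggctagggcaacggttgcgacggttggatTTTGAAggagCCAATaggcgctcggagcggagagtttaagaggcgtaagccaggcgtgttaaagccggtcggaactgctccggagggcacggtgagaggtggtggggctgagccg
PLK1, chr16:23678639-23678938, plus strand: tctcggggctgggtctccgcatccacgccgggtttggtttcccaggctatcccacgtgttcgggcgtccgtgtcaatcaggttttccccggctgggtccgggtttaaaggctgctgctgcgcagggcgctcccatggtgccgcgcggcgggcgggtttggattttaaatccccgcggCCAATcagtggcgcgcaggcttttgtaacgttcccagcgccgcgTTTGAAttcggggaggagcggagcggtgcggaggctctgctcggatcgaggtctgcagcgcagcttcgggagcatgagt
KIF20A, chr5:138178862-138179161, plus strand: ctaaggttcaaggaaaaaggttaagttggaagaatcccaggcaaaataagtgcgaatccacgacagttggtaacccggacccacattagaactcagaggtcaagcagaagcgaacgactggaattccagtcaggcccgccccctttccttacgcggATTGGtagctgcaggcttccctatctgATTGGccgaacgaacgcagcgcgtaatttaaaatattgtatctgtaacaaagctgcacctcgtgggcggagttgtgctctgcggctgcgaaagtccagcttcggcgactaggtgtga

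In the windows of CCNB1 and KIF20A there are 2 CCAAT words each and no TTTGAA, in that of PLK1 1 of each, and in that of CDC20 2 of each. Searched on both strands, CCAAT was in the windows of 28 of the 35 genes (80.0%), against 39.7% of all 27305 genes with a window. TTTGAA, the common form of the CHR, was in 27 of 35 (77.1%), against 18.2% of all genes. Another form, TTCGAA, was in 2 of 35 (5.71%), against 1.82% of all genes. TTTAAA, a further word searched, was in 14 of 35 (40.0%), against 14.5% of all genes. CCAAT and TTTGAA occurred together for 22 of the 35 genes (62.9%). The share was 7.26% of all genes and 5.6% of the 7426 genes counted in all 5 pairs. A match to these letters is a description and not a bound site.

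The distance of the words from the start was also taken. In the first listed window of each gene, 61 CCAAT words in 27 genes had a median distance of -69 bases from the start, and 77% of them lay between -120 and -20, against 48.3% of the words in all genes. For TTTGAA, 35 words in 26 genes had a median distance of -28, and 65.7% lay between -60 and 20, against 22.5% in all genes. HMMR held 5 CCAAT words and DLGAP5 held 3 TTTGAA words, the most for each. KIF2C, CENPE and CDC25C held neither word in that window, and over all listed windows KIF2C and CENPE held neither.

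**Figure D1:**
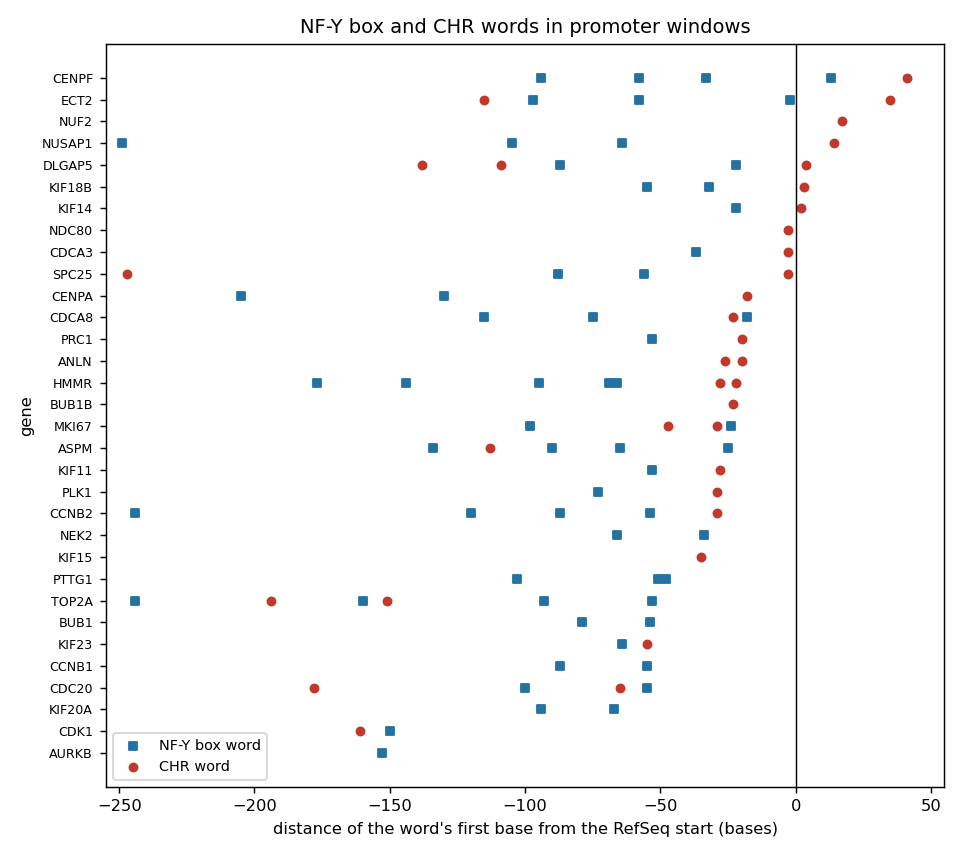
Distance from the RefSeq start, in bases, of the first base of each CCAAT word (NF-Y box, squares) and each TTTGAA word (CHR, circles) in the first listed promoter window of each of the G2/M and mitosis genes that hold either word there, 1 gene per row. Most circles lie between -60 and 20 and most squares lie between -120 and -20.

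The deposited values are FPKM, counts of fragments corrected for transcript length and library size, which the authors scaled within each table of 2 libraries. Read depth is unknown, and no counting interval can be given. Of all genes, between 11268 and 12773 had at least 1 FPKM in a library. The transcripts that the shRNAs target were lower in both lines, ABL1 by a log2 ratio of -2.38 in PC9 and -1.33 in PC9M, and ABL2 by -1.63 in PC9 and -0.63 in PC9M. The 5 epithelial markers EPCAM, CDH1, KRT8, KRT18 and KRT19 summed to between 1970 and 12604 FPKM in the 10 libraries. The lung markers NKX2-1, NAPSA and SFTPB summed to between 0.162 FPKM, in PC9M with the scrambled shRNA, and 101.8, in H358 with DMSO. In that PC9M library they were thus near 0, in a line labelled as lung adenocarcinoma. Summed fibroblast markers lay between 1.29 and 13.1 FPKM, leukocyte markers between 0.301 and 2.66, and endothelial markers between 0.271 and 31.6, highest in PC9 with DMSO.

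The PC9 libraries of the GNF5 experiment had the lowest median levels of the G2/M and mitosis genes among the 10 libraries, followed by H358 with GNF5. The PC9 median was 7.35 FPKM with GNF5 and 5.76 with DMSO, against 20.4 in PC9 with the ABL shRNAs and 28.4 in PC9 with the scrambled shRNA. The medians in PC9M were 19.5 FPKM with GNF5, 34.4 with DMSO, 35.5 with the ABL shRNAs and 29.3 with the scrambled shRNA. In H358 they were 9.96 FPKM with GNF5 and 14.7 with DMSO. The tables were scaled separately, so these levels can be set side by side across tables only as a description. What set the levels in these PC9 libraries was not tested.

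**Figure D2:**
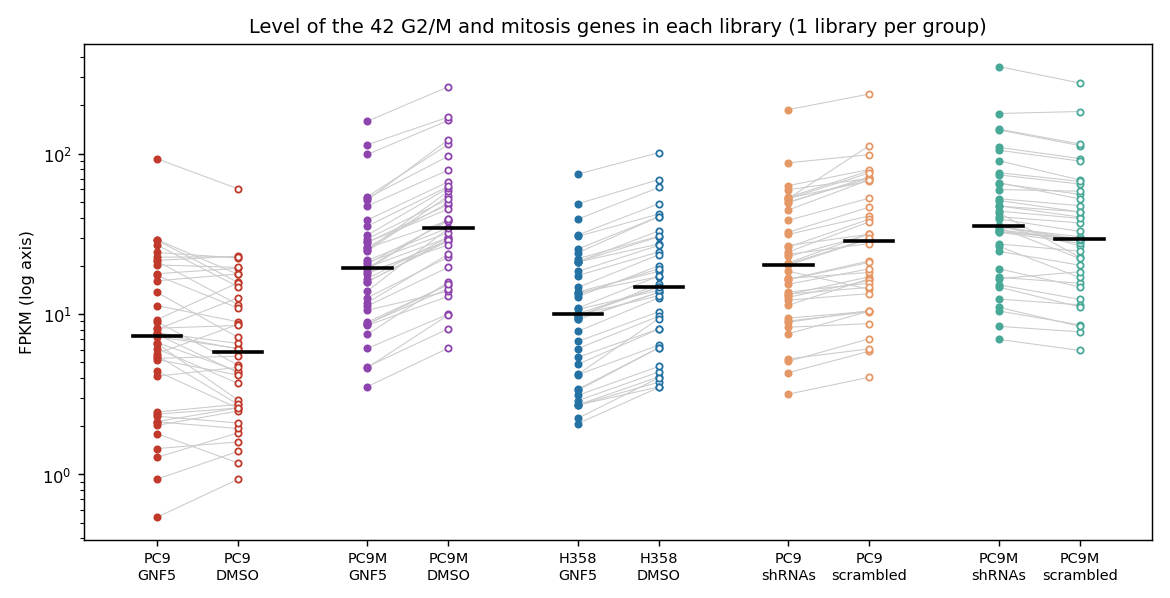
FPKM (log axis) of the 42 G2/M and mitosis genes in each of the 10 libraries, filled points for GNF5 or ABL1/ABL2 shRNAs and open points for DMSO or scrambled shRNA. Lines join a gene within a pair and black bars are medians, which lie at 7.35 and 5.76 in PC9 with GNF5 and DMSO and at 19.5 and 34.4 in PC9M with GNF5 and DMSO.

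GNF5 went with lower levels of every G2/M and mitosis gene in PC9M and H358, and with no common direction in PC9. A ratio here is log2((treated FPKM + 1)/(control FPKM + 1)), which understates the difference of low genes, and a gene was counted where either library had at least 1 FPKM. In PC9M, 42 of 42 were lower with GNF5, where 57.7% of all genes were, and their median ratio was -0.76, against -0.06 over all genes. In H358, 42 of 42 were also lower, where 74.5% of all genes were, with a median of -0.51 against -0.19. In PC9, 17 of the 41 counted were lower, where 57% of all genes were, and 24 were higher, where 43% were, with a median of 0.11 against -0.10. After centring on the median of all genes, 11 of 41 were lower in PC9, with a median of 0.21, and the H358 median was -0.32. CENPE was below 1 FPKM in both PC9 libraries of this pair and was not counted. In these bulk cultures, fewer dividing cells and less transcript per dividing cell cannot be told apart.

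The ratios were also spread differently in the 3 lines. In PC9M the interquartile range of the ratios was -0.94 to -0.66, and 4.09% of all genes had a ratio below the median of these genes. In H358 the SD across the 42 genes was 0.132, against 0.442 across the 41 in PC9, where ratios ran between -0.70 (CENPM) and 0.95 (KIF20A). The width of the interquartile range was 0.72 in PC9, 0.27 in PC9M and 0.17 in H358. Over all genes it was 0.77, 0.46 and 0.39, so the PC9 pair was the widest there too. At least 2-fold lower were 6 genes in PC9M, where 1.81% of all genes were, none in H358, where 2.4% were, and none in PC9, where 6.83% were. The 6 were KIF20A, CDC20, BIRC5, PLK1, CCNB1 and FOXM1, and with a pseudocount of 0.1 FPKM in place of 1 there were 10. None was 2-fold higher with GNF5 in PC9, PC9M or H358, where 5.17%, 1.58% and 1.12% of all genes were. PC9M was further below 0 than H358 for 39 of the 42 genes, and the share of all genes was not taken. HMMR, NUSAP1 and CDC25C were the exceptions. The labelled dose was also higher in PC9M, so line and dose cannot be told apart.

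**Figure D3:**
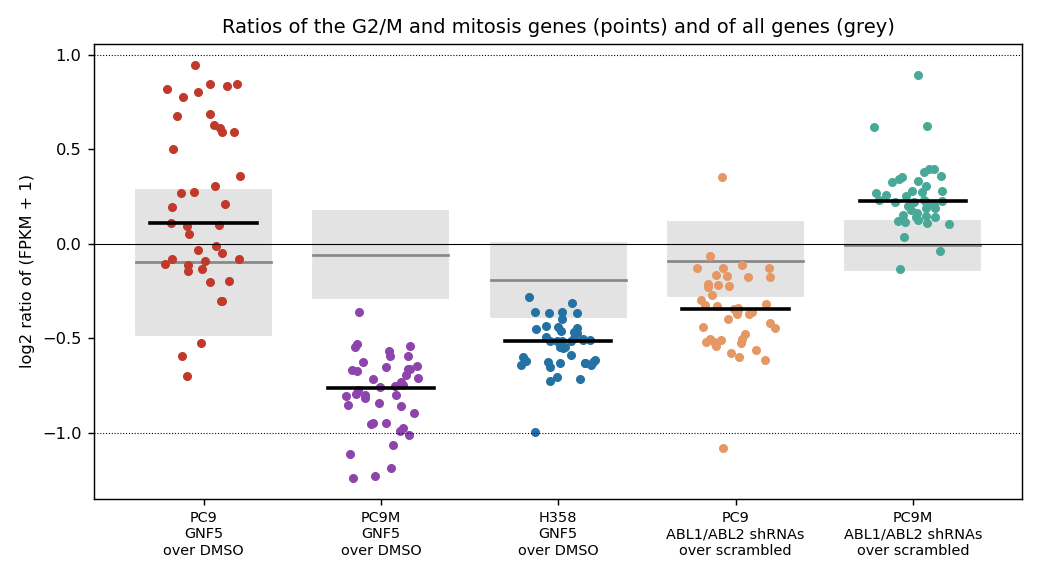
Log2 ratio of FPKM + 1 for each G2/M and mitosis gene (points) in the 5 pairs, treated over control, with the members' median as a black bar. Grey boxes span the middle 50% of all genes counted in that pair with their median as a grey line, and dotted lines mark 2-fold. The points lie below 0 in PC9M and H358 with GNF5, on both sides in PC9 with GNF5, mostly below 0 in PC9 with shRNAs and mostly above 0 in PC9M with shRNAs.

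The shRNAs against ABL1 and ABL2 went with small differences of opposite sign in the 2 lines. In PC9, 41 of 42 genes were lower with the ABL shRNAs, where 62.3% of all genes were, with a median ratio of -0.35 against -0.09 over all genes. In PC9M, 40 of 42 were higher, where 48.1% of all genes were, and 2 were lower, where 51.9% were, with a median of 0.22 against -0.01. CDK1 in PC9 was the only gene 2-fold apart in either shRNA pair, where 1.92% of all genes were at least 2-fold lower and 1.21% at least 2-fold higher in PC9. In PC9M 0.808% of all genes were 2-fold lower and 1.01% 2-fold higher. After centring, CDK1 no longer reached 2-fold. In all, 39 genes were lower with the ABL shRNAs in PC9 and higher in PC9M. The share of all genes with both signs together was not taken.

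Of the 8 listed genes of mitotic entry, 3 were among the 6 that were 2-fold lower with GNF5 in PC9M. The median ratio of the 8 in that pair was -0.81, against -0.76 over the 42. CCNB1, cyclin B1, which activates CDK1, was at 24.2 FPKM with GNF5 against 22.4 with DMSO in PC9, 53.99 with GNF5 against 114 with DMSO in PC9M and 31.1 with GNF5 against 48.8 with DMSO in H358. In the shRNA pairs it was at 53.4 FPKM with the ABL shRNAs against 78.2 with the scrambled shRNA in PC9, and 109.5 with the ABL shRNAs against 93.3 with the scrambled shRNA in PC9M. Its level thus lay below the control in 3 of the 5 pairs, with ratios of -1.07 in PC9M and -0.63 in H358 with GNF5 and -0.54 in PC9 with the shRNAs. CCNB2, another B-type cyclin, was at 8.96 FPKM with GNF5 against 4.81 with DMSO in PC9, a ratio of 0.78, while CCNB1 there was at 0.11. The cyclins thus differed in PC9 with GNF5 and were both lower in PC9M and H358.

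CDK1, the kinase partner of these cyclins, was at 28.8 FPKM with GNF5 against 15.7 with DMSO in PC9, 99.1 with GNF5 against 161 with DMSO in PC9M and 21.2 with GNF5 against 30.3 with DMSO in H358. It was lower with GNF5 in PC9M and H358 and higher in PC9, with a ratio of 0.83. In the shRNA experiment CDK1 was at 52.5 FPKM with the ABL shRNAs against 112 with the scrambled shRNA in PC9, and 178 with the ABL shRNAs against 183 with the scrambled shRNA in PC9M. Its PC9 ratio of -1.08 was the lowest of the 42 genes in that pair and its PC9M ratio was -0.04. The same gene was thus among the highest of the list with GNF5 in PC9 and the lowest with the shRNAs in PC9, in libraries whose controls stood at 15.7 FPKM with DMSO and 112 with the scrambled shRNA.

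FOXM1, the forkhead factor that activates G2/M genes, was at 8.16 FPKM with GNF5 against 8.49 with DMSO in PC9, 19.00 with GNF5 against 39.4 with DMSO in PC9M and 4.86 with GNF5 against 8.07 with DMSO in H358. The authors' own test of FOXM1 failed in the PC9 table with GNF5, although both FPKM values are listed. In the pairs with shRNAs FOXM1 was at 26.2 FPKM with the ABL shRNAs against 39.04 with the scrambled shRNA in PC9, and 51.1 with the ABL shRNAs against 43.4 with the scrambled shRNA in PC9M. Its ratio was -1.01 in PC9M with GNF5 and -0.05 in PC9 with GNF5.

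PLK1, a kinase of centrosome maturation and mitotic entry, was at 16.1 FPKM with GNF5 against 17.8 with DMSO in PC9, 24.7 with GNF5 against 54.5 with DMSO in PC9M and 12.8 with GNF5 against 20.00 with DMSO in H358. PLK1 in the shRNA pairs was at 49.99 FPKM with the ABL shRNAs against 69.98 with the scrambled shRNA in PC9, and 65.1 with the ABL shRNAs against 55.8 with the scrambled shRNA in PC9M. Its GNF5 values were thus close together in PC9 alone. AURKA, a spindle-pole kinase, was at 21.6 FPKM with GNF5 against 22.96 with DMSO in PC9, 52.9 with GNF5 against 96.6 with DMSO in PC9M and 21.1 with GNF5 against 27.4 with DMSO in H358. The AURKA levels in the shRNA pairs were 49.5 FPKM with the ABL shRNAs against 71.7 with the scrambled shRNA in PC9, and 105 with the ABL shRNAs against 89.97 with the scrambled shRNA in PC9M. PLK1 and AURKA were close to level in PC9 with GNF5 (ratios of -0.13 and -0.08) and lower in PC9M (-1.11 and -0.86). NEK2, a kinase that parts the centrosomes, had ratios of 0.63 in PC9, -0.53 in PC9M and -0.37 in H358 with GNF5. CDC25C, the phosphatase that activates CDK1, was the least low gene in PC9M with GNF5, at -0.36, and was at -0.63 in H358.

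The 6 listed genes of the spindle checkpoint and APC/C function were all higher with GNF5 in PC9, where 43% of all genes were. All 6 were lower with GNF5 in PC9M and H358, where 57.7% and 74.5% of all genes were. Outside the list, genes with such functions went both ways in PC9 with GNF5, with MAD2L1 at 0.66 and UBE2S at -0.20. CDC20, the activator of the APC/C that the checkpoint restrains, was at 29.1 FPKM with GNF5 against 17.7 with DMSO in PC9, 51.5 with GNF5 against 122 with DMSO in PC9M and 30.5 with GNF5 against 42.05 with DMSO in H358. In the shRNA pairs CDC20 was at 63.2 FPKM with the ABL shRNAs against 79.6 with the scrambled shRNA in PC9, and 141 with the ABL shRNAs against 112 with the scrambled shRNA in PC9M. Its ratio of -1.23 in PC9M stood next to that of KIF20A as the lowest of the list, and in H358 CDC20 was at -0.45. The authors' deposited table gives CDC20 in PC9M with GNF5 a p-value of 0.000961 and a q-value of 0.114.

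BUB1, a checkpoint kinase at kinetochores, was at 7.47 FPKM with GNF5 against 4.302 with DMSO in PC9, 19.5 with GNF5 against 29.99 with DMSO in PC9M and 13.6 with GNF5 against 17.1 with DMSO in H358. For the shRNAs the BUB1 levels were 16.7 FPKM with the ABL shRNAs against 18.2 with the scrambled shRNA in PC9, and 35.5 with the ABL shRNAs against 26.8 with the scrambled shRNA in PC9M. TTK, the kinase that starts checkpoint signalling, was at 6.64 FPKM with GNF5 against 4.41 with DMSO in PC9, 15.9 with GNF5 against 29.2 with DMSO in PC9M and 6.75 with GNF5 against 10.3 with DMSO in H358. Both kinases were higher in PC9 and lower in PC9M and H358 with GNF5. TTK in the shRNA pairs was at 20.9 FPKM with the ABL shRNAs against 31.7 with the scrambled shRNA in PC9, and 32.8 with the ABL shRNAs against 29.3 with the scrambled shRNA in PC9M. BUB1B, part of the complex that inhibits the APC/C, had ratios of 0.59 in PC9, -0.72 in PC9M and -0.63 in H358 with GNF5. In the PC9 shRNA pair TTK was among the 5 lowest, at -0.58, and BUB1 among the 5 highest, at -0.12.

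UBE2C, the ubiquitin-conjugating enzyme of the APC/C, had the highest FPKM of the list in all 10 libraries. It was at 92.9 FPKM with GNF5 against 60.4 with DMSO in PC9, 159 with GNF5 against 261 with DMSO in PC9M and 74.6 with GNF5 against 101 with DMSO in H358. UBE2C in the shRNA pairs was at 188 FPKM with the ABL shRNAs against 235 with the scrambled shRNA in PC9, and 349 with the ABL shRNAs against 276 with the scrambled shRNA in PC9M. Its ratios of 0.61, -0.71 and -0.44 with GNF5 in the lines PC9, PC9M and H358 lay near the medians of its group, which were 0.64, -0.71 and -0.47. PTTG1, securin, which holds separase inactive until anaphase, was among the 5 highest in PC9 with GNF5, at 26.9 FPKM with GNF5 against 14.8 with DMSO, and among the 5 least low in PC9M, at 114 FPKM with GNF5 against 169 with DMSO.

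Genes of centromeres and kinetochores had the lowest group median in PC9 with GNF5, -0.20 over the 6 counted. NDC80, a subunit of the complex that grips microtubules, was at 5.68 FPKM with GNF5 against 8.62 with DMSO in PC9, 21.6 with GNF5 against 34.5 with DMSO in PC9M and 5.38 with GNF5 against 8.09 with DMSO in H358. In the pairs with shRNAs it was at 20.2 FPKM with the ABL shRNAs against 29.4 with the scrambled shRNA in PC9, and 32.6 with the ABL shRNAs against 29.1 with the scrambled shRNA in PC9M. NDC80 was therefore lower with GNF5 in all 3 lines, with ratios of -0.53, -0.65 and -0.51 in the lines PC9, PC9M and H358. NUF2 and SPC25, of the same complex, were also lower with GNF5 in all 3 lines, at -0.20 and -0.20 in PC9, -0.55 and -0.76 in PC9M and -0.37 and -0.51 in H358.

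CENPF, a large protein that joins the outer kinetochore in G2, was at 2.31 FPKM with GNF5 against 2.09 with DMSO in PC9, 12.6 with GNF5 against 22.7 with DMSO in PC9M and 3.35 with GNF5 against 6.15 with DMSO in H358. Its levels in the shRNA pairs were 9.44 FPKM with the ABL shRNAs against 10.4 with the scrambled shRNA in PC9, and 26.5 with the ABL shRNAs against 16.9 with the scrambled shRNA in PC9M. In H358 with GNF5 its ratio of -0.72 was among the 5 lowest, and in PC9M with the shRNAs its ratio of 0.62 was among the 5 highest. The authors' deposited table gives CENPF the lowest q-value of the list in H358, 0.131. CENPE, a kinesin of the kinetochore, was at 4.702 FPKM with GNF5 against 8.104 with DMSO in PC9M and 2.89 FPKM with GNF5 against 4.35 with DMSO in H358.

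CENPA, the histone H3 variant that marks centromeres, was the only gene higher with the shRNAs in both lines. It was at 18.5 FPKM with the ABL shRNAs against 14.3 with the scrambled shRNA in PC9, and 42.8 with the ABL shRNAs against 22.6 with the scrambled shRNA in PC9M. Its ratios of 0.35 in PC9 and 0.89 in PC9M were the highest of the 42 in both pairs, and with GNF5 CENPA had 0.30 in PC9, -0.59 in PC9M and -0.52 for H358. The authors' deposited table gives CENPA in PC9M with the shRNAs a q-value of 0.105, and a p-value of 0.284 in PC9.

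CENPM, a subunit of the network that stays at centromeres, was the only gene lower in all 5 pairs. It was at 9.23 FPKM with GNF5 against 15.7 with DMSO in PC9, 7.49 with GNF5 against 15.9 with DMSO in PC9M and 9.28 with GNF5 against 13.7 with DMSO in H358. In the shRNA pairs it was at 87.7 FPKM with the ABL shRNAs against 98.6 with the scrambled shRNA in PC9, and 16.6 with the ABL shRNAs against 18.3 with the scrambled shRNA in PC9M. Its ratio of -0.70 was the lowest of the list in PC9 with GNF5, and its ratio of -0.13 was the lowest in PC9M with the shRNAs. Its level of 98.6 FPKM in PC9 with the scrambled shRNA lay well above the 15.7 of PC9 with DMSO and the 18.3 of PC9M with the scrambled shRNA.

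The chromosomal passenger complex corrects faulty attachments and guides cytokinesis. AURKB, its kinase, was at 5.503 FPKM with GNF5 against 2.73 with DMSO in PC9, 25.9 with GNF5 against 38.2 with DMSO in PC9M and 17.4 with GNF5 against 24.4 with DMSO in H358. The shRNA pairs had AURKB at 11.3 FPKM with the ABL shRNAs against 16.6 with the scrambled shRNA in PC9, and 47.1 with the ABL shRNAs against 43.4 with the scrambled shRNA in PC9M. BIRC5, survivin, the subunit that docks the complex, was at 7.22 FPKM with GNF5 against 6.11 with DMSO in PC9, 25.1 with GNF5 against 58.4 with DMSO in PC9M and 25.4 with GNF5 against 40.5 with DMSO in H358. In PC9M the ratio of BIRC5 was -1.19 and that of AURKB -0.54, so that subunits of the same complex lay near opposite ends of the list. BIRC5 in the shRNA pairs was at 26.8 FPKM with the ABL shRNAs against 31.5 with the scrambled shRNA in PC9, and 65.96 with the ABL shRNAs against 52.2 with the scrambled shRNA in PC9M. CDCA8, borealin, had ratios of 0.19 in PC9, -0.75 in PC9M and -0.62 in H358 with GNF5.

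Among the kinesin motors, KIF20A had the highest ratio of all 42 genes in PC9 with GNF5 and the lowest in PC9M. KIF20A, a motor of the central spindle in cytokinesis, was at 6.54 FPKM with GNF5 against 2.91 with DMSO in PC9, 13.9 with GNF5 against 34.3 with DMSO in PC9M and 6.097 with GNF5 against 9.69 with DMSO in H358. In the pairs with shRNAs it was at 13.7 FPKM with the ABL shRNAs against 15.6 with the scrambled shRNA in PC9, and 33.5 with the ABL shRNAs against 29.02 with the scrambled shRNA in PC9M. With GNF5 it had a ratio of 0.95 in PC9, one of -1.24 in PC9M and one of -0.59 in H358. With a pseudocount of 0.1 FPKM, or with centred ratios, 1 gene passed 2-fold in PC9, and it was KIF20A. Its listed locus, chr5:137542316-137576931 in hg18, also holds CDC23, and the strand of the libraries is not given in the sources used here.

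KIF11, the motor that pushes spindle poles apart, was at 2.38 FPKM with GNF5 against 2.596 with DMSO in PC9, 15.96 with GNF5 against 28.6 with DMSO in PC9M and 4.18 with GNF5 against 6.41 with DMSO in H358. In the shRNA pairs KIF11 was at 16.5 FPKM with the ABL shRNAs against 21.5 with the scrambled shRNA in PC9, and 35.2 with the ABL shRNAs against 28.9 with the scrambled shRNA in PC9M. The motor was near level in PC9 with GNF5 and lower in PC9M and H358. KIF2C, which takes microtubules apart at their ends, was at 21.3 FPKM with GNF5 against 11.4 with DMSO in PC9, among the 5 highest there, and at 17.8 FPKM with GNF5 against 28.8 with DMSO in PC9M. KIF14 and KIF18B were the motors nearest to level in H358 with GNF5, at -0.36 and -0.28. In PC9 with GNF5 KIF14 was among the 5 lowest of the list, at 1.28 FPKM with GNF5 against 1.82 with DMSO. KIF15, which backs up KIF11, was at -0.66 in PC9M with GNF5, and KIF23, of the centralspindlin complex, at -0.82.

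Among spindle and cytokinesis factors, TPX2, which nucleates spindle microtubules and activates AURKA, was at 20.2 FPKM with GNF5 against 19.5 with DMSO in PC9, 38.6 with GNF5 against 66.8 with DMSO in PC9M and 22.1 with GNF5 against 30.6 with DMSO in H358. In the pairs with shRNAs TPX2 was at 52.5 FPKM with the ABL shRNAs against 75.7 with the scrambled shRNA in PC9, and 73.8 with the ABL shRNAs against 64.7 with the scrambled shRNA in PC9M. TPX2 and AURKA had similar ratios, in PC9 with GNF5 0.05 for TPX2 and -0.08 for AURKA and in PC9M -0.77 for TPX2 and -0.86 for AURKA. ANLN, a scaffold of the contractile ring, was at 13.6 FPKM with GNF5 against 7.16 with DMSO in PC9 and at 31.1 FPKM with GNF5 against 61.2 with DMSO in PC9M. ECT2, the exchange factor that switches on RhoA for cytokinesis, was at 8.03 FPKM with GNF5 against 12.6 with DMSO in PC9, among the 5 lowest of the list, and at 35.4 FPKM with GNF5 against 62.5 with DMSO in PC9M. These partners in furrow formation thus had opposite signs in PC9 with GNF5, while with the shRNAs in PC9 both were among the 5 lowest, at -0.62 for ANLN and -0.60 for ECT2.

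HMMR, a spindle-pole protein, had the lowest ratio in H358 with GNF5, -0.995, at 4.21 FPKM with GNF5 against 9.38 with DMSO. NUSAP1, which bundles spindle microtubules, came next at -0.73, at 24.1 FPKM with GNF5 against 40.6 with DMSO. In PC9M HMMR was at -0.89 and NUSAP1 at -0.67. ASPM, of the spindle pole, was among the 5 lowest in PC9, at 0.936 FPKM with GNF5 against 1.39 with DMSO, and PRC1, which crosslinks midzone microtubules, was level there, at 22.6 FPKM with GNF5 against 22.8 with DMSO. DLGAP5, which stabilises kinetochore fibres, had ratios of 0.27 in PC9, -0.85 in PC9M and -0.55 in H358 with GNF5.

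Of the genes acting on chromatin, TOP2A, the topoisomerase that untangles sister chromatids, was at 17.9 FPKM with GNF5 against 19.3 with DMSO in PC9, 47.2 with GNF5 against 79.1 with DMSO in PC9M and 39.1 with GNF5 against 61.6 with DMSO in H358. In the shRNA experiment TOP2A was at 59.7 FPKM with the ABL shRNAs against 70.2 with the scrambled shRNA in PC9, and 90.5 with the ABL shRNAs against 68.6 with the scrambled shRNA in PC9M. MKI67, the proliferation antigen Ki-67 that coats mitotic chromosomes, was at 1.796 FPKM with GNF5 against 1.18 with DMSO in PC9, 11.8 with GNF5 against 23.7 with DMSO in PC9M and 2.08 with GNF5 against 3.49 with DMSO in H358. In PC9M with GNF5 MKI67 had a ratio of -0.95 and TOP2A one of -0.73. MKI67 in the shRNA pairs was at 8.89 FPKM with the ABL shRNAs against 10.5 with the scrambled shRNA in PC9, and 34.7 with the ABL shRNAs against 22.2 with the scrambled shRNA in PC9M. In PC9M with the shRNAs MKI67 came after CENPA, at 0.62, with TOP2A at 0.39. CDCA3 was among the 5 lowest in H358 with GNF5, at 3.401 FPKM with GNF5 against 6.17 with DMSO.

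**Figure D4:**
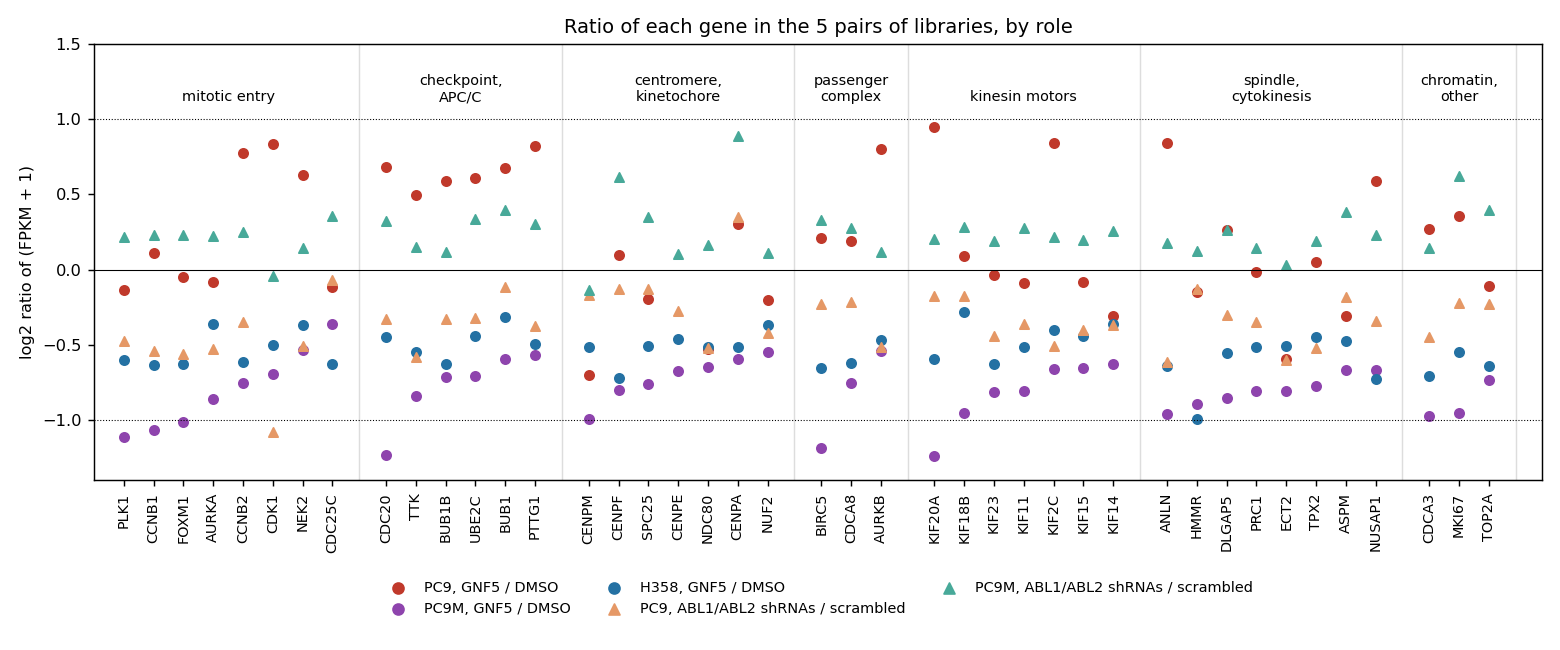
Log2 ratio of FPKM + 1 for each of the 42 genes by role, circles for GNF5 over DMSO in PC9, PC9M and H358 and triangles for ABL1/ABL2 shRNAs over scrambled shRNA in PC9 and PC9M. Dotted lines mark 2-fold. The 6 listed genes placed in the checkpoint and APC/C group lie above 0 in PC9 with GNF5, where 43% of all genes do. They lie below 0 in PC9M and H358 with GNF5, where 57.7% and 74.5% of all genes do.

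The ratios of the 2 shRNA pairs had medians of opposite sign and were moderately correlated across the genes. Across the 42 genes, Pearson's r between the PC9 and PC9M shRNA ratios was 0.66 and Spearman's rho 0.56, and without CENPA both were 0.52 over 41 genes. Over the 11146 genes counted in both pairs r was 0.35 and rho 0.45. These genes share each library and are not independent points, so this is a description. CENPA, CENPF and BUB1 were among the 5 highest in both pairs. The corresponding values between PC9M and H358 with GNF5 were 0.30 for r and 0.42 for rho, against 0.21 and 0.33 over all 11454 genes counted in both, and PC9 with GNF5 had an r of -0.01 with PC9M and of 0.04 with H358. For 38 genes the lowest of the 5 ratios was that in PC9M with GNF5, and for 27 the highest was that in PC9M with the shRNAs. The same counts over all genes were not taken.

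**Figure D5:**
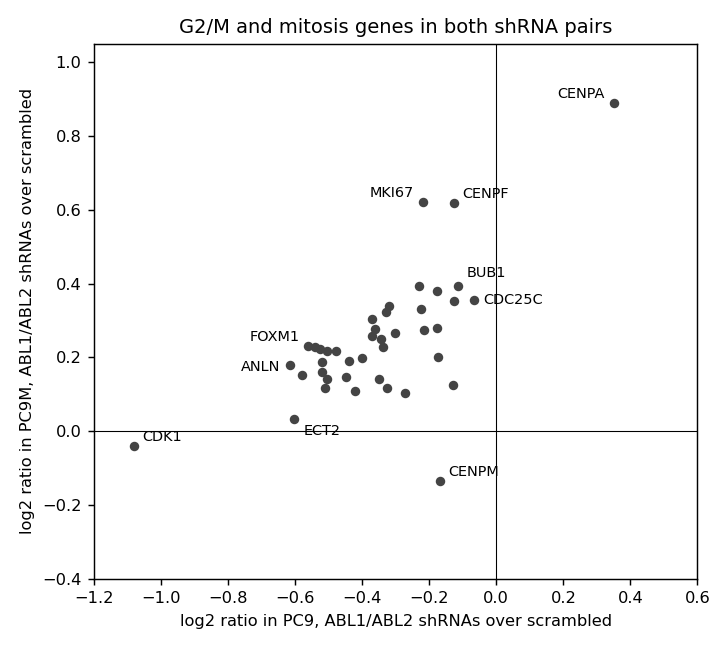
Log2 ratio of FPKM + 1, ABL1/ABL2 shRNAs over scrambled shRNA, in PC9 (horizontal axis) and PC9M (vertical axis) for the 42 G2/M and mitosis genes, 1 point per gene. Most genes are in the upper left, lower in PC9 and higher in PC9M, with CENPA at 0.35 and 0.89 and CDK1 at -1.08 and -0.04 at the ends.

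No G2/M or mitosis gene passed a test across lines. The 5 ratios were fitted with limma, GNF5 and shRNAs as 2 groups of 3 and 2 lines, for 13885 genes. For GNF5, 0 of 42 genes passed an adjusted p-value of 0.05, where 0.0072% of all genes did, and 10 of 42 had an unadjusted p under 0.05, where 17% of all genes did. All 42 had a mean ratio below 0, with a median of -0.39 against -0.11 over all genes. After centring on all genes 38 of 42 had, with a median of -0.30 against -0.02. The share of all genes with a mean ratio below 0 was not taken for any of these fits. CENPM had the lowest adjusted p in limma, 0.242, with a mean ratio of -0.74 (SE 0.131) and lower values in 3 of 3 lines. ECT2 was at -0.63 (SE 0.157) with an adjusted limma p of 0.243, NDC80 at -0.56 (SE 0.158) with 0.257, and HMMR at -0.68 (SE 0.194) with 0.260. Like CENPM, these were among the 18 of 42 genes lower with GNF5 in 3 of 3 lines. KIF2C had the highest adjusted limma p, 0.918, with a mean of -0.07 (SE 0.316). Leaving out the PC9 ratio gave 39 of 42 genes an unadjusted p under 0.05, where 17.9% of all genes had one, a median of -0.66 for the mean ratios and a lowest adjusted limma p of 0.163, so that none passed. Leaving out the PC9M ratio gave 2 of 42 an unadjusted p under 0.05, where 15.3% of all genes had one. The mean ratio was then below 0 for 31 of 42, with a median of -0.22 against -0.14 over all genes. Leaving out the H358 ratio gave 2 of 42 such a p, where 12.7% of all genes had one. The mean ratio was then below 0 for 35 of 42, with a median of -0.36 against -0.07 over all genes.

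For the shRNAs, limma called 0 of 42 genes and 0 of all genes, no gene of the list had an unadjusted p under 0.05, where 4.29% of all genes did, and the median of their mean ratios was -0.07. Leaving out the PC9 shRNA ratio turned this median to 0.22, and leaving out that of PC9M gave -0.35. The difference between GNF5 and the shRNAs had 0 of 42 calls in limma and 0 of all genes, and CENPM and CENPA had an unadjusted p under 0.05, where 8.19% of all genes did. For the average of both perturbations limma called none of the 42 and none of all genes, and 4 of 42 had an unadjusted p under 0.05, where 9.62% of all genes did. Without the PC9 ratio with GNF5 these numbers were 17 of 42 for the difference and 23 of 42 for the average, where 14.2% and 13.9% of all genes had such a p, and without any other ratio they were at most 2 for the difference and at most 3 for the average. The lines stand in for replicates, and PC9 and PC9M share a name and may not be independent.

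The authors' deposited tables test 1 library against 1. In them, no gene of the list had a q-value under 0.05 in any pair, where for GNF5 the share of all genes was 0.259% in PC9, 0.481% in PC9M and 0.709% with H358. For the shRNAs the share of all genes was 0.739% in PC9 and 0.936% in PC9M. The authors' deposited p-value was under 0.05 for 24 of 42 genes in PC9M and 17 of 42 in H358 with GNF5, where 6.21% and 7.08% of all genes were, and for none of the 41 tested in PC9, where 7.02% were. With the shRNAs it was under 0.05 in the authors' deposited tables for 1 gene in PC9, CDK1, where 6.04% of all genes were, and for 3 in PC9M, where 5.05% were. These p-values carry no replicate and compare libraries, not conditions.

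A further 56 mitotic genes, taken from the same programme, had medians close to those of the 42. They were chosen with earlier results of these data known and measured in the same libraries, so they are not an independent check. With GNF5 their median ratio was 0.01 over 51 counted in PC9, -0.83 over 55 in PC9M and -0.49 over 56 in H358. All 55 were lower in PC9M, where 57.7% of all genes were, and 55 of 56 in H358, where 74.5% were. LMNB1, a lamin of the nuclear envelope, was at 16.8 FPKM with GNF5 against 43.3 with DMSO in PC9M, and ZWINT, a kinetochore protein, at 6.19 FPKM with GNF5 against 15.02 with DMSO in H358. With the shRNAs the median was -0.32 in PC9, with 53 of 54 lower, where 62.3% of all genes were, and 0.17 in PC9M, with 3 of 55 lower, where 51.9% were. CDC25B, a phosphatase that activates CDK1, was the lowest of this list in both shRNA pairs, at -0.84 in PC9 and -0.11 in PC9M.

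Genes of DNA replication had lower medians than the mitotic genes in PC9M and H358 with GNF5. All 17 were lower in PC9M, where 57.7% of all genes were, with a median of -1.23, and all 17 in H358, where 74.5% were, with a median of -1.02. At least 2-fold lower were 13 in PC9M, where 1.81% of all genes were, and 9 in H358, where 2.4% were. FEN1, the flap endonuclease, was at 8.19 FPKM with GNF5 against 24.97 with DMSO in PC9M, and GINS2, of the replicative helicase, at 3.91 FPKM with GNF5 against 16.4 with DMSO in H358. In PC9 the median of 16 counted was 0.21, with CDT1, the licensing factor, at 22.4 FPKM with GNF5 against 9.46 with DMSO. Subunits of the APC/C itself, which are not cell cycle genes as a rule, had medians of -0.24 in PC9, -0.18 in PC9M and -0.15 in H358 with GNF5, over 13 genes.

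Among 19 regulators of the G2/M programme, the median ratio with GNF5 was -0.28 over 16 counted in PC9, -0.48 in PC9M and -0.24 in H358. MYBL2, B-MYB, which joins MuvB to activate these genes, was at 6.15 FPKM with GNF5 against 7.58 with DMSO in PC9, 37.1 with GNF5 against 106 with DMSO in PC9M and 2.79 with GNF5 against 8.22 with DMSO in H358. Its ratio was the lowest of the regulators in PC9M and in H358. In the shRNA pairs MYBL2 was at 82.5 FPKM with the ABL shRNAs against 65.7 with the scrambled shRNA in PC9, and 151 with the ABL shRNAs against 118 with the scrambled shRNA in PC9M, higher in both lines. RB1, the retinoblastoma protein, was the lowest regulator in PC9, at 1.995 FPKM with GNF5 against 5.095 with DMSO. Of 18 genes of G1 control, 9 of the 15 counted were higher with GNF5 in PC9, where 43% of all genes were, with a median of 0.47, while 13 of 17 were lower in PC9M, where 57.7% of all genes were, with a median of -0.27, and 14 of 16 in H358, where 74.5% were, with a median of -0.47. E2F2, an activating E2F factor, was the highest in PC9, at 0.96. CDKN2B and CDKN1A, which encode the inhibitors p15 and p21, were the lowest there, at 5.04 FPKM with GNF5 against 28.6 with DMSO for CDKN2B and 2.23 FPKM with GNF5 against 14.2 with DMSO for CDKN1A. In PC9M with GNF5 CDKN2B was at 0.67 and CDKN1A at 0.30. In H358 with GNF5 both were lower, CDKN2B at -0.15 and CDKN1A at -0.75.

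The level of these genes also differed between the control libraries. Across separately scaled tables and after centring on all genes, the PC9 library with the scrambled shRNA lay above that with DMSO by a median of 1.75 (3.37-fold), with 42 of 42 genes higher, where 50% of all genes were, and 41 at least 2-fold higher, where 7.28% were. ANLN was the furthest apart, at 2.93, and CENPA the least, at 0.45. In PC9M the same comparison gave a median of -0.08, with 14 higher and 28 lower. None was 2-fold apart there, where 1.62% of all genes were 2-fold higher and 1.24% 2-fold lower. The gap between the PC9 controls was therefore larger than the median of any treated pair. Transduction, polybrene, DMSO and table differ between these libraries and cannot be told apart. Other differences between the cultures are possible, and what set the gap was not tested.

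Between lines, PC9M with DMSO lay above PC9 with DMSO by a median of 2.09, with 41 of 42 genes at least 2-fold higher, where 20.4% of all genes were. MKI67 was the furthest apart, at 3.36, and CENPM was at -0.12. With the scrambled shRNA, PC9M lay above PC9 by 0.29, with 29 of 42 genes higher, where 50% of all genes were. Past 2-fold were 4 genes on the higher side, where 16.8% of all genes were, and 1 on the lower side, where 17.5% were, with PTTG1 at 1.51 and CENPM at -2.32 as the extremes. H358 with DMSO lay below PC9M with DMSO for 42 of 42 genes, by a median of -1.49, with 30 at least 2-fold lower, where 16.6% of all genes were. It lay above PC9 with DMSO by a median of 0.63, with 33 higher and 9 lower, where 50% of all genes were higher, and 14 of 42 at least 2-fold higher, where 21.3% were. The order of the genes by FPKM was nonetheless alike in the 5 control libraries, with Spearman's rho between 0.72 and 0.98 over the 42 genes.

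The 35 genes with a window were split by the CHR word TTTGAA. With GNF5 the median of the 8 without it was -0.63 in PC9M and -0.46 in H358, against -0.76 and -0.54 for the 27 with it. With the shRNAs the medians were -0.44 without and -0.34 with the word in PC9, and 0.21 without and 0.25 with it in PC9M. In PC9 with GNF5 the 8 genes without it, CCNB1, AURKB, BUB1, KIF20A, KIF2C, CENPE, PTTG1 and NEK2, had a median of 0.74, against -0.01 for the 27. CENPE, at -0.33, is in that median although it lay below 1 FPKM. The split is by TTTGAA alone. Of the genes without it, BUB1 held TTCGAA, and CCNB1, KIF20A, KIF2C, CENPE and PTTG1 held TTTAAA. Of the printed windows, those with CCAAT but no TTTGAA belong to KIF20A, at 0.95 in PC9 with GNF5, and CCNB1, at 0.11. Those with both words belong to CDK1, at 0.83, CDC20, at 0.68, and PLK1, at -0.13. The values of the 2 kinds thus overlapped. These splits have no test.

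A few listed loci overlap other genes, and the strand of the libraries is not given in the sources used here. PLK1 shares its locus, chr16:23597702-23632322 in hg18, with ERN2, and BUB1B shares chr15:38240502-38356980 with PAK6 and C15orf56. ANLN shares chr7:36330284-36459925 with KIAA0895, and FOXM1 shares chr12:2816243-2856582 with LOC100507424. Transcript length was weakly related to the ratios of the 42 genes, with Spearman's rho between -0.18 and 0.09 over the 5 pairs. The mean level in a pair was related to the ratio with a rho between -0.44, in PC9 with the shRNAs, and 0.27, in PC9 with GNF5, against -0.08 and 0.16 over protein-coding genes in those pairs.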

How the data were processed

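RNA was extracted and sequenced from 10 cultures, 1 library per group. Reads were processed with TopHat and Cuffdiff on build hg18, per the submitters' processing notes, with versions and annotation not given in the sources used here. The deposited tables hold FPKM for the 2 libraries of each pair, scaled by the authors within that table. They also hold p-values and q-values that the authors obtained with Cuffdiff from 1 library against 1. The H358 header numbers its treated sample as if another condition had been analysed beside it, and whether one was is not stated.

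From each of the 5 tables, 28 entries with a date in place of a symbol were dropped. EEF1A1 was dropped too, since 1 table lists it without an estimate. Genes whose Cuffdiff test failed kept their deposited FPKM. The remaining 23234 genes were joined by symbol. Low FPKM values step with transcript length, no count was recovered, and the depth is unknown. Ratios were log2((treated + 1)/(control + 1)), counted where either library reached 1 FPKM. The 5 ratios were fitted with limma 3.58.1 (R 4.3.3), perturbation as the factor, a prior trended on the mean log2 level, 3 residual degrees of freedom and Benjamini-Hochberg adjustment at 0.05, for the 13885 genes that reached 1 FPKM in 2 libraries or more. Each line enters as 1 library per group, and its p-values rest on the spread among lines. The fit was tested on simulated data. Figures were drawn with matplotlib 3.10.9, and tables were joined with pandas 2.3.3 under Python 3.11.15.

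The members and lists were chosen with earlier results of these data known. All values are given for 18 members picked by role, then the 5 highest and 5 lowest in each pair, members called by limma (there were 0) and up to 4 genes of each further list. Promoter windows came from RefSeq (GRCh38.p14). Alternatives were other pseudocounts, other minimum levels, centred ratios, an untrended prior, a replicate block by line and leaving out each pair.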

Additional observations from a re-analysis of the deposited data

Results flagged for a closer look

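The median ratio of the G2/M and mitosis genes with GNF5 had opposite signs in different lines. It was 0.11 in PC9, against -0.76 in PC9M and -0.51 in H358. These signs differ between lines under the same contrast, but each rests on 1 library per group, so the difference between lines was not tested.

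With the shRNAs against ABL1 and ABL2 the median ratio was -0.35 in PC9 and 0.22 in PC9M. Here too the signs are opposite under the same contrast, and the difference was not tested. Of the 42 genes, 39 were lower with the ABL shRNAs in PC9 and higher in PC9M. Of all genes, 62.3% were lower in PC9 and 48.1% higher in PC9M, and the share with both was not taken.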

How the results depend on the processing

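The direction of the median ratio of the 42 genes was kept in all 5 pairs under each pseudocount, minimum and centring tried. With a pseudocount of 0.1 FPKM the genes at least 2-fold apart numbered 1 in PC9, 10 in PC9M and 1 in H358 with GNF5, in place of 0, 6 and 0. After centring they numbered 1 in PC9 with GNF5 and 0 in PC9 with the shRNAs. The median with GNF5 in PC9 was 0.27 with a minimum of 5 FPKM (29 genes) and 0.21 after centring, and in H358 it was -0.32 after centring. The count of genes lower in PC9 with GNF5, whose alternatives were chosen after seeing the data, was 9 of 29 with a minimum of 5 FPKM and 11 of 41 after centring, in place of 17 of 41.

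In limma 0 of the 42 genes were called in any of the 4 contrasts under the alternatives run. Over all genes, calls for GNF5 numbered 3 with a pseudocount of 0.1, 0 with one of 5, 2 with a minimum of 5 FPKM, 0 with no minimum and 2 after centring, in place of 1. Calls for the shRNAs numbered 1 with a pseudocount of 0.1 and 1 after centring, and those for the average and the difference 2 each with a pseudocount of 0.1, all in place of 0. Leaving out 1 pair gave between 0 and 5 calls for GNF5, between 0 and 5 for the shRNAs, between 0 and 4 for the average and between 0 and 5 for the difference. With a replicate block by line, GNF5 had 0 calls, and the block changed no call among the 42 genes. Replicate numbers in the labels pair no samples beyond the lines themselves. The cause of these moves was not tested. With 1 library per group and FPKM alone, the precision of single genes is unknown.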
